A study of Rattus norvegicus with 18 samples.

Results

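Ventricular myocytes (MC) of neonatal rats that were stretched in the presence of KB-R7934 (ST + KB-R7934) were compared with static cells that received neither stretch nor inhibitor (static control). KB-R7934, also written KB-R7943, is used in the study as an inhibitor of the sodium-calcium exchanger NCX. The ST + KB-R7934 cells were strained cyclically by 20% for 24 h with 10 µM of the compound, and the static control cells stood on the same kind of plate for 24 h. Both groups shared the isolation from Wistar rats, the enrichment of MC by pre-plating, BrdU against dividing non-myocytes and serum-free medium, so that a remainder of other cell types was present in each culture. The labels give the strain as 20%, and the study's methods word it differently. There were 3 arrays labelled as biological replicates in each group, 6 of the 18 arrays of the series, and each array held RNA pooled from technical replicates of its culture. The arrays of ST + KB-R7934 pooled 2 each, and static control arrays 1, 2 and 3 pooled 4, 2 and 2. Cells given KB-R7934 without stretch or pacing were not among the arrays, and the arrays of stretch alone are not used here. The part of stretch and the part of the inhibitor therefore cannot be told apart in this comparison. Of 36685 transcript clusters on the array, 14824 carried exactly 1 gene symbol, and the brightest cluster of each symbol gave the 14557 genes described.

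NCX normally carries calcium out of the myocyte in exchange for sodium. When sodium accumulates it can run in reverse and bring calcium in, and this mode has been linked to calcium-dependent gene expression in stretched and in rapidly paced heart muscle. Beyond the exchanger, much of what follows concerns programmes that cells use to adjust metabolism. Sterol-regulated transcription factors of the SREBP family switch on the enzymes of cholesterol and fatty acid synthesis when membrane sterol is low. The integrated stress response (ISR) works through the factor ATF4 and supplies amino acids, transporters and tRNA synthetases when translation initiation is impaired. The exchanger genes Slc8a1, Slc8a2 and Slc8a3 were not among the clusters with exactly 1 symbol. Slc8b1, a mitochondrial exchanger of the same family, stood at 7.09, 7.20 and 7.49 on the log2 scale in ST + KB-R7934 arrays, against 7.16, 6.88 and 7.52 in static control arrays, and the groups overlapped.

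The values were log2 expression. Arrays of the same group correlated at r = 0.984 to 0.988 over all clusters and arrays of different groups at 0.980 to 0.986, and array medians lay between 5.26 and 5.34. None of the 14 measured cardiomyocyte markers lay below the lower quartile of any array, but the same held for the leukocyte and fibroblast markers, so this does not check the label of the culture. The summed linear level of the cardiomyocyte markers was 45713 to 54008 in ST + KB-R7934 arrays, against 33947 to 46140 in static control arrays. Fibroblast markers summed to 10274 to 12179 in ST + KB-R7934 arrays and 9644 to 14807 in static control arrays, so those ranges overlapped. The lowest ST + KB-R7934 array was thus just below the highest control for the cardiomyocyte markers. Summed markers of macrophages and other leukocytes did not overlap between the groups and are given further on. Static control array 1 lay nearest to the mean of the ST + KB-R7934 arrays for 38.3% of genes, and for larger shares of several lists named below. With 3 arrays a group, precision is limited by their number.

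Across all clusters, limma with Benjamini-Hochberg adjustment called 2 genes at an adjusted p under 0.05 (0.00545% of clusters, 0.0137% of the 14557 genes), and both were higher in ST + KB-R7934. The study's figure legend uses a p under 0.05 and a change of at least 1.2-fold. With the unadjusted limma p, which is a reading made here, 1693 genes met that threshold (11.6%), 791 of them higher (5.43%) and 902 lower (6.2%). Over all clusters 3800 met it (10.4%), 1801 of them higher (4.91%) and 1999 lower (5.45%). The 3 arrays of ST + KB-R7934 lay wholly above the 3 static control arrays for 1403 genes (9.64%) and wholly below them for 1531 (10.5%). Among genes at the threshold, 65 were more than 2-fold higher and 50 more than 2-fold lower. The median log2 difference over all genes was -0.00 and the median size 0.13. In the following, rose and fell are used of genes at this threshold, and all adjusted p-values are from limma over all clusters. Counts of list members are to be read beside the shares of all genes given above.

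**Figure D1:**
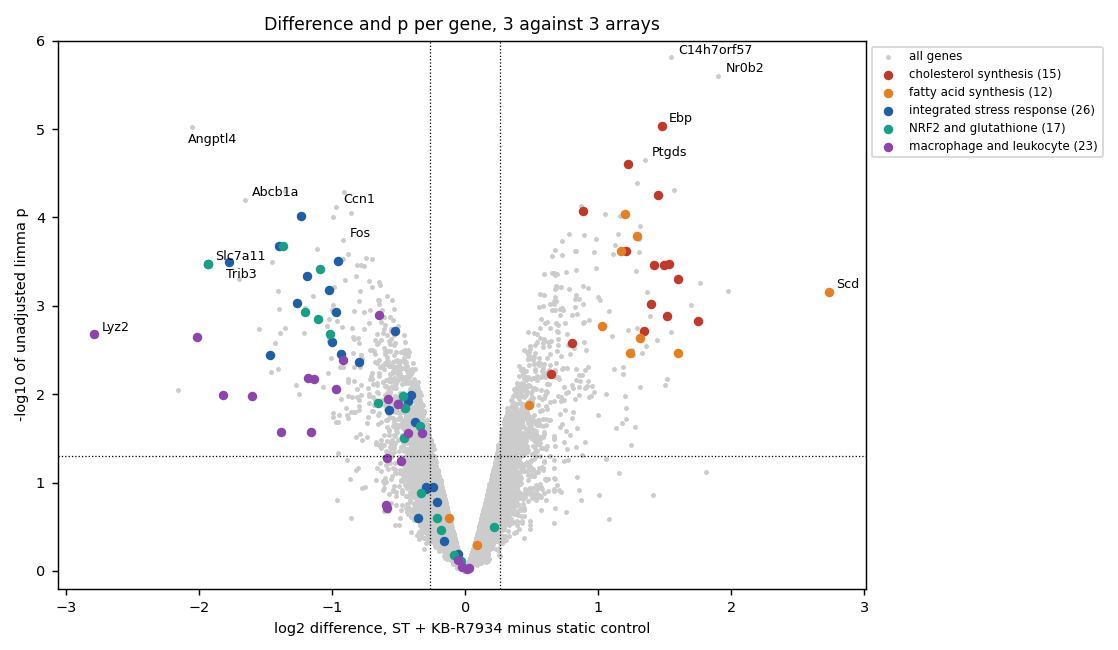
Each point is a gene, with the log2 difference of ST + KB-R7934 minus static control on the horizontal axis and -log10 of the unadjusted limma p on the vertical axis; dotted lines mark the threshold. The cholesterol synthesis genes (red) lie on the right, from 0.65 to 1.75, and the integrated stress response genes (blue) on the left, from -1.94 to -0.06.

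The genes of cholesterol synthesis were higher as a group in stretched MC given KB-R7934. Of 25 genes listed, 15 were measured, and all 15 rose, with the arrays of the groups not overlapping for any of them. Over all genes, 5.43% rose and 9.64% had the ST + KB-R7934 arrays wholly above the controls. Their median log2 difference was 1.42, against -0.00 over all genes, and single genes ranged from 0.65 to 1.75. Leaving out each array in turn left 15 genes at the threshold every time.

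Along the pathway, the mevalonate steps were represented by Pmvk, the phosphomevalonate kinase, and by Mvd, which decarboxylates the product to the isoprene unit. Mvd stood at 8.57, 8.58 and 8.56 in ST + KB-R7934 arrays, against 7.49, 7.01 and 6.88 in static control arrays, a difference of 1.45 (SE 0.17, 2.72-fold, adjusted p = 0.107). Its ST + KB-R7934 values lay closely together and well above all controls. Idi1, the isomerase that provides the reactive isoprene, was at 10.50, 10.53 and 10.08 in ST + KB-R7934 arrays, against 9.45, 8.33 and 8.08 in static control arrays, which made it the largest difference of the list at 1.75 (SE 0.35, 3.36-fold, adjusted p = 0.182). Fdps, which builds farnesyl diphosphate, rose by 1.52 and Fdft1, the squalene synthase that commits farnesyl to sterols, by 1.40. Sqle, the squalene epoxidase and a rate-limiting step, stood at 10.85, 10.98 and 10.67 in ST + KB-R7934 arrays and at 9.90, 9.24 and 9.09 in static control arrays (1.42, SE 0.22, adjusted p = 0.118).

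The later steps turn lanosterol into cholesterol. Ebp, the sterol isomerase, had the smallest p of the list, with 9.21, 9.35 and 9.06 in ST + KB-R7934 arrays against 7.84, 7.56 and 7.80 in static control arrays (1.47, SE 0.13, 2.78-fold, adjusted p = 0.0868). Tm7sf2, a sterol C14 reductase, was at 9.09, 9.35 and 9.36 in ST + KB-R7934 arrays and at 8.16, 8.03 and 7.95 in static control arrays (1.22, SE 0.13, adjusted p = 0.104). The demethylation enzymes Msmo1, Nsdhl and Hsd17b7 rose by 1.53, 1.60 and 1.5, and Sc5d and Dhcr7, which act late in the pathway, by 1.21 and 1.35. The regulators changed less than most enzymes. Insig1, which holds SREBP precursors in the endoplasmic reticulum and is itself an SREBP target, stood at 10.66, 10.75 and 10.62 in ST + KB-R7934 arrays against 9.89, 9.81 and 9.67 in static control arrays (0.89, SE 0.11, adjusted p = 0.113), and Srebf2, the SREBP most tied to cholesterol, rose by 0.65 (SE 0.17, adjusted p = 0.267). For all 15 genes, the static control value nearest to ST + KB-R7934 was that of array 1. Leaving out each array in turn gave medians of the list from 1.25 to 1.67, the highest without that array.

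**Figure D2:**
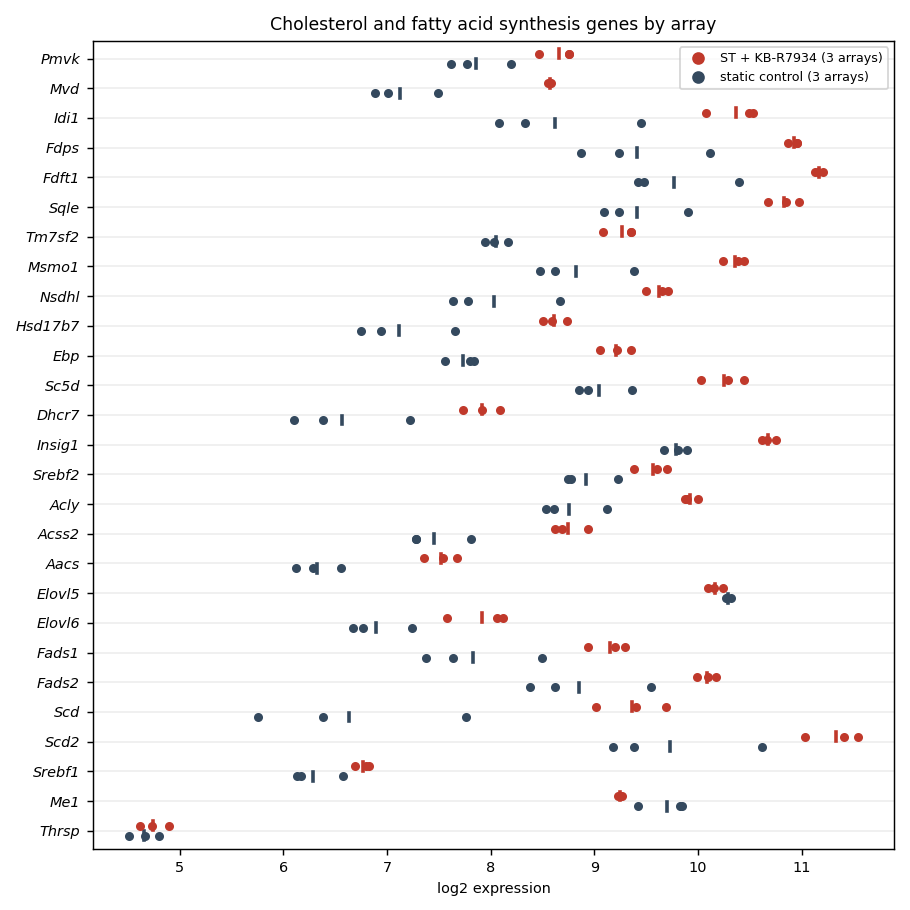
Log2 expression of the 15 cholesterol synthesis genes, in pathway order from Pmvk to Srebf2, and of the 12 fatty acid synthesis genes below them; points are arrays (red ST + KB-R7934, slate static control, 3 each) and bars are group means. Red and slate points are separated for each of the 15 cholesterol genes, while Elovl5, Me1 and Thrsp depart from the rightward shift of the other fatty acid genes.

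Fatty acid synthesis and desaturation followed the same direction. Of 12 genes measured, 9 rose and 1 fell, with a median of 1.18. Scd, the stearoyl-CoA desaturase that makes monounsaturated fatty acids, had the largest rise of all genes at the threshold. It stood at 9.41, 9.69 and 9.01 in ST + KB-R7934 arrays, against 7.76, 6.38 and 5.76 in static control arrays (2.74, SE 0.48, 6.66-fold, adjusted p = 0.147). All ST + KB-R7934 arrays were higher than every control, and the controls themselves spread over more than any other gene shown in that plot. Its relative Scd2 rose by 1.60, and the desaturases of polyunsaturated fatty acids, Fads1 and Fads2, by 1.31 and 1.24. Acly and Acss2, which make cytosolic acetyl-CoA from citrate and acetate, rose by 1.17 and 1.29 (SE 0.17 and 0.18), and Aacs, which activates acetoacetate for lipid synthesis, by 1.2 (SE 0.15, adjusted p = 0.113). Srebf1, the SREBP of fatty acid synthesis, rose by 0.48. Elovl5 (-0.12) and Thrsp (0.09) were not at the threshold, and Me1, the malic enzyme, fell by 0.45. Me1 is listed with the NRF2 genes as well, and Scd and Srebf1 also with the LXR targets, where Apoe fell by 0.68, Mylip by 0.33, and Abca1 (-0.20) and Abcg1 (-0.38) were not at the threshold.

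Genes of fatty acid oxidation and other targets of the lipid-activated receptors PPAR were divided. Of 32 measured, 4 rose and 12 fell, and their median was -0.07. The shares were 12.5% and 37.5%, against 5.43% and 6.2% of all genes. Leaving out each array in turn gave 8 to 14 that fell and medians from -0.21 to -0.03. Angptl4, a secreted inhibitor of lipoprotein lipase, had the smallest p of all lower genes, at 6.90, 6.61 and 7.28 in ST + KB-R7934 arrays against 8.85, 8.99 and 9.12 in static control arrays (-2.06, SE 0.18, 4.17-fold lower, adjusted p = 0.0868). Pdk4, which restrains glucose oxidation by inhibiting pyruvate dehydrogenase, was at 8.88, 8.67 and 9.37 in ST + KB-R7934 arrays and at 10.12, 10.87 and 11.05 in static control arrays (-1.71, SE 0.28, 3.26-fold lower, adjusted p = 0.134). Both genes were lower in every ST + KB-R7934 array than in every control. The thioesterases Acot2 and Acot1 fell by 1.44 and 1.25, and the trifunctional protein subunits Hadha and Hadhb by 0.43 and 0.44, while Cpt1a (-0.04), Cpt1b (-0.09) and Cpt2 (0.01), the carnitine gate of mitochondria, were not at the threshold. On the other side, the coactivator Ppargc1a stood at 9.13, 9.24 and 8.80 in ST + KB-R7934 arrays against 8.62, 7.93 and 7.85 in static control arrays (0.92, SE 0.23, adjusted p = 0.254), and Ppara rose by 0.47. In glucose metabolism, the muscle enolase Eno3 rose by 0.54, the glucose transporter Slc2a4 by 0.47 and the glycogen synthase Gys1 by 0.44, whereas Pfkfb3, a producer of the glycolytic activator fructose 2,6-bisphosphate, fell by 0.48. Those 3 rises were 0 without ST + KB-R7934 array 2 or static control array 3 and 1 without static control array 2.

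The integrated stress response moved the opposite way to sterol synthesis. All 26 measured genes had lower means in ST + KB-R7934, 19 of them fell, and none rose. The median was -0.69. Leaving out each array in turn left between 17 and 19 at the threshold. The 3 ST + KB-R7934 arrays were below all controls for 19 of the 26, against 10.5% of all genes.

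Among the transcription factors of the response, Atf4 itself fell by 0.43, with 11.08, 11.15 and 11.34 in ST + KB-R7934 arrays against 11.47, 11.75 and 11.64 in static control arrays (SE 0.13, adjusted p = 0.317). Its relative Atf5 was at 8.34, 8.17 and 8.47 in ST + KB-R7934 arrays and at 9.32, 9.81 and 9.55 in static control arrays (-1.23, SE 0.16, 2.35-fold lower, adjusted p = 0.113). Atf3 fell by 1.47 and Ddit3, the factor CHOP, by 0.94, and Cebpg, a partner of ATF4, by 0.58. Below them, Trib3, a pseudokinase that restrains ATF4 and insulin signalling, stood at 7.22, 7.15 and 8.04 in ST + KB-R7934 arrays, against 8.90, 9.52 and 9.31 in static control arrays (-1.78, SE 0.27, 3.42-fold lower, adjusted p = 0.117). Chac1, which degrades glutathione, was at 7.02, 6.95 and 7.58 in ST + KB-R7934 arrays and at 8.40, 8.84 and 8.51 in static control arrays (-1.40, SE 0.20, adjusted p = 0.116). Neither gene's groups overlapped, although ST + KB-R7934 array 3 was the highest of its group in both.

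Amino acid supply was part of the lower group. Slc7a11, the cystine importer, stood at 6.57, 6.33 and 7.12 in ST + KB-R7934 arrays against 8.02, 8.80 and 9.0 in static control arrays (-1.94, SE 0.30, 3.83-fold lower, adjusted p = 0.118). The shared transporter chain Slc3a2 fell by 1.19 and the leucine carrier Slc7a5 by 0.96. In serine and one-carbon metabolism, Mthfd2 fell by 1.03, Aldh1l2 by 0.80, Psph by 0.53 and Shmt2 by 0.51. Gdf15, a cytokine released by stressed tissue, fell by 1.27, Ppp1r15a, which ends the translational block, by 1.00, and Sesn2, an amino acid sensor, by 0.97. Cth, Cebpb, Stc2, Fgf21, Eif4ebp1, Ddit4 and Vldlr, with differences between -0.36 and -0.06, were not at the threshold. Of 16 cytoplasmic tRNA synthetases, 7 fell and none rose, with a median of -0.28. Yars1, the enzyme for tyrosine, was at 8.66, 8.64 and 8.71 in ST + KB-R7934 arrays and at 9.13, 9.54 and 9.15 in static control arrays (-0.60, SE 0.14, adjusted p = 0.23), Lars1 fell by 0.58 and Aars1 by 0.44. The count of 7 was 3 without ST + KB-R7934 array 1 or 2 or static control array 2.

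**Figure D3:**
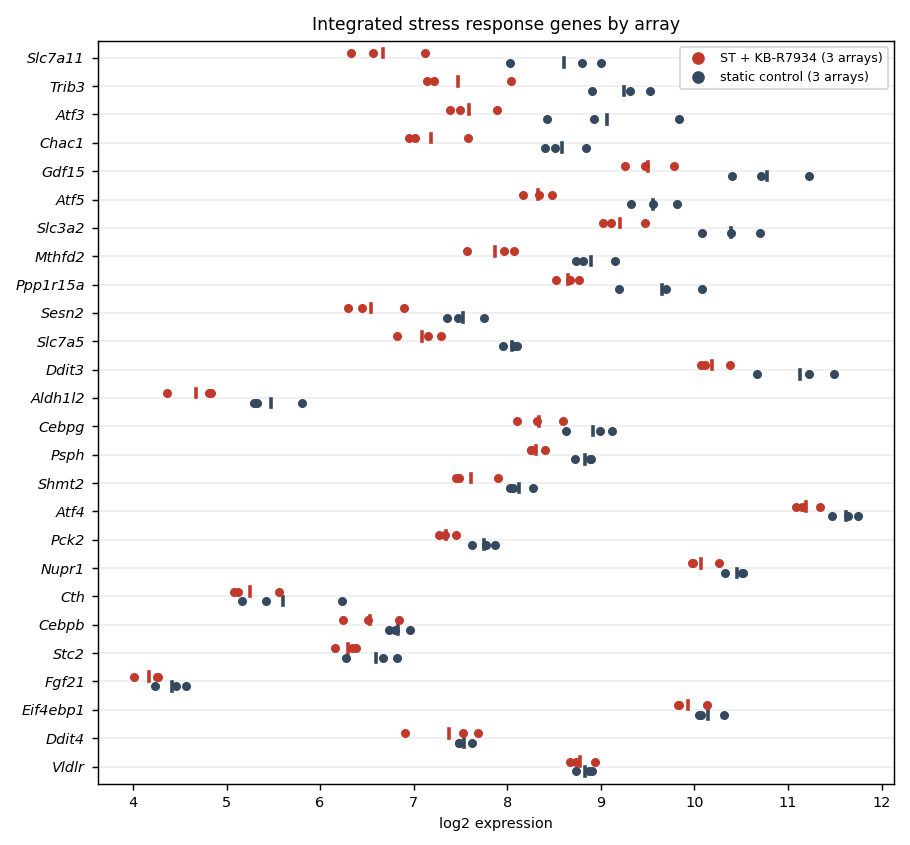
Log2 expression of the 26 integrated stress response genes, ordered by their difference; points are arrays (red ST + KB-R7934, slate static control, 3 each) and bars are group means. The red means lie left of the slate means in every line, and the 2 colours begin to overlap from Cth downwards.

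ATF4 binds composite sites known as amino acid response elements. The letters TGATGNAA were searched on both strands of the RefSeq promoters of assembly GRCr8, 250 bases before to 50 after each gene's start, which were held for 11787 of the genes. They stood in 5 of 23 promoters of the ISR list (21.7%: Chac1, Fgf21, Nupr1, Pck2 and Trib3) and in 6 of 14 of the tRNA synthetases (42.9%: Aars1, Iars1, Mars1, Nars1, Tars1 and Yars1), against 3.13% of all promoters. The 250 bases before the start of Trib3 (chr3:161275534-161275783, minus strand) and Chac1 (chr3:126795881-126796130, plus strand), both of which fell, are shown along the gene's own strand. The match lies on the opposite strand in each and therefore appears in capitals as its reverse complement.
Trib3: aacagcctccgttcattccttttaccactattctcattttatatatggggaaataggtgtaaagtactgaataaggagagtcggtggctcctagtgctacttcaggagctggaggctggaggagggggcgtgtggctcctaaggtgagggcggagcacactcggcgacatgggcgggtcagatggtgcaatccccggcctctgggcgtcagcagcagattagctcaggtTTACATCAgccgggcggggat
Chac1: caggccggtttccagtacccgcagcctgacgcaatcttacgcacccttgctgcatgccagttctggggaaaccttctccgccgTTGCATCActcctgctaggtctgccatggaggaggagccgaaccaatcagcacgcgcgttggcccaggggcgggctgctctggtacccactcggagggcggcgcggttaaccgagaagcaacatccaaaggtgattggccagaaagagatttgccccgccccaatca

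Some of the synthetase matches are shown as short windows, read along the strand of the match with the match in capitals, to let their flanks be compared. Mars1 (chr7:65023752-65023781) fell by 0.37, while Iars1 (chr17:15193658-15193687) and Tars1 (chr2:62114811-62114840), with differences of -0.17 and -0.11, did not reach the threshold.
Mars1: ggagcccacgcTGATGCAAccggaacgggc
Iars1: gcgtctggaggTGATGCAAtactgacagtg
Tars1: agctaaccagcTGATGCAAcgggacgccag
All 3 windows carry the same letters TGATGCAA, and genes with and without a call share them. For sterol synthesis, the letters TCACNCCAC of a sterol regulatory element were found in 0 of 12 cholesterol gene promoters and 0 of 11 fatty acid gene promoters, against 1.01% of all promoters. A match is only a description of these letters in this window.

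Targets of NRF2, the factor that answers oxidants, fell with the stress genes. Of 17 measured, 11 fell and none rose, with a median of -0.47. Slc7a11, given above, is counted in both this list and the ISR list and had the lowest difference in each. Nqo1, a quinone reductase, stood at 9.38, 9.24 and 9.66 in ST + KB-R7934 arrays against 10.42, 10.93 and 11.05 in static control arrays (-1.37, SE 0.20, 2.59-fold lower, adjusted p = 0.116). Hmox1, the haem oxygenase, was at 10.35, 10.72 and 11.19 in ST + KB-R7934 arrays and at 11.69, 12.03 and 12.15 in static control arrays (-1.21, SE 0.23, adjusted p = 0.172), without overlap. Osgin1 fell by 1.09, the glutathione synthesis subunits Gclm and Gclc by 1.11 and 0.66, and the thioredoxin reductase Txnrd1 by 1.02. Txn1 (-0.03), Cat (-0.22) and Sod2 (0.21) were not at the threshold. Static control array 1 was the nearest control for 14 of the 17 genes, and without it 13 fell and the median was -0.59. Leaving out each array in turn gave 8 to 13 genes that fell and medians from -0.59 to -0.38. The letters TGACNNNGC of an antioxidant response element stood in 4 of 15 promoters of the list (26.7%) and in 13.1% of all. They were not particular to this list. The shares were 33.3% for cholesterol synthesis, 36.4% for fatty acid synthesis, 28.6% for tRNA synthetases and 21.7% for the ISR.

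Protein folding in the endoplasmic reticulum was lower by smaller amounts. All 18 measured genes had lower means, 8 fell and none rose, with a median of -0.32. Hspa5, the chaperone BiP, stood at 11.33, 11.41 and 11.31 in ST + KB-R7934 arrays against 11.87, 11.92 and 11.77 in static control arrays (-0.51, SE 0.10, adjusted p = 0.189). The sensor Atf6 fell by 0.77, Sel1l of the degradation pathway by 0.52 and the calcium-binding chaperone Calr by 0.38, while Xbp1 was at -0.22 and not at the threshold. Of the cytosolic heat shock list, 3 of 18 fell, Dnajb1 by 0.51, Hspa1b by 0.44 and Hspb7 by 0.41, and 1 fell without static control array 2. The 3 were 16.7% of the list, against 6.2% of all genes that fell.

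Immediate early genes, the first to answer calcium and growth signals, were mostly lower after the 24 h. Of 28 measured, 11 fell and 1 rose, with a median of -0.26. Leaving out each array in turn gave 8 to 14 that fell. Atf3, which is also counted in the ISR list, had the lowest difference of the list. Fos stood at 6.15, 6.23 and 6.39 in ST + KB-R7934 arrays, against 6.99, 7.23 and 7.31 in static control arrays (-0.92, SE 0.13, 1.90-fold lower, adjusted p = 0.116). Fosl1, another AP-1 subunit, was at 6.74, 6.68 and 6.76 in ST + KB-R7934 arrays and at 7.51, 7.77 and 7.88 in static control arrays (-0.99, SE 0.13, adjusted p = 0.113). Both genes were lower in all 3 ST + KB-R7934 arrays. Egr2 fell by 0.88, Egr1 by 0.79, Ier2 by 0.78 and Myc by 0.67, and Dusp1, a phosphatase of MAP kinases, rose by 0.35, while Jun (-0.17), Junb (-0.15) and Nr4a1 (-0.38) did not reach the threshold. Among stretch-responsive matricellular genes, Ccn1, a target of YAP and SRF, stood at 9.20, 9.18 and 8.95 in ST + KB-R7934 arrays against 10.19, 10.06 and 10.01 in static control arrays (-0.98, SE 0.12, 1.97-fold lower, adjusted p = 0.113). Its relative Ccn2 (0.10) and the YAP targets Ankrd1 (-0.16) and Ajuba (-0.15) were not at the threshold, and F3, the tissue factor, fell by 0.45.

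The 2 genes with an adjusted p under 0.05 belonged to none of the above. C14h7orf57, an uncharacterised gene named after a human open reading frame, stood at 8.67, 8.66 and 8.75 in ST + KB-R7934 arrays, against 7.16, 7.04 and 7.23 in static control arrays (1.55, SE 0.11, 2.92-fold, adjusted p = 0.0455). Nr0b2 encodes a nuclear receptor without a DNA-binding domain that represses other receptors and is best known from bile acid control in liver. It was at 7.97, 8.30 and 8.33 in ST + KB-R7934 arrays and at 6.22, 6.24 and 6.45 in static control arrays (1.90, SE 0.14, 3.73-fold, adjusted p = 0.0455). In both genes the arrays of each group lay close together and the groups were far apart. Neither call was kept when any array other than static control 1 was left out, since the count of clusters at an adjusted p under 0.05 was then 0. The count was also 0 with the replicate number as a block, with a two-way ANOVA on that number and with median centring, and an unpaired test made neither call.

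Other genes with small p-values came from varied functions. Ptgds, a prostaglandin D synthase, stood at 8.80, 9.11 and 8.95 in ST + KB-R7934 arrays against 7.71, 7.41 and 7.69 in static control arrays (1.35, SE 0.14, adjusted p = 0.104). Clic5, a chloride intracellular channel, was at 10.28, 10.77 and 10.56 in ST + KB-R7934 arrays and at 9.28, 9.20 and 9.26 in static control arrays (1.29, SE 0.14, adjusted p = 0.105). Pla2g2a, a secreted phospholipase A2 induced in inflammation, rose by 1.97 (SE 0.34), Tceal7 by 1.69, Ropn1l by 1.31, the adaptor Sh2d4a by 1.17, Mgst3l1 by 1.05 and Otulin, a deubiquitinase of linear ubiquitin chains, by 0.87. On the lower side, Abcb1a, the drug efflux pump P-glycoprotein, stood at 4.86, 5.01 and 4.66 in ST + KB-R7934 arrays against 6.12, 6.83 and 6.56 in static control arrays (-1.66, SE 0.20, 3.16-fold lower, adjusted p = 0.113). Hmgn2, a nucleosome-binding protein, was at 10.64, 10.52 and 10.58 in ST + KB-R7934 arrays and at 11.39, 11.55 and 11.53 in static control arrays (-0.91, SE 0.11, adjusted p = 0.105). The histone gene H2ac21 fell by 1.36, Odc1, the first enzyme of polyamine synthesis, by 0.92, the metalloprotease family member Adam23 by 0.86 and the ceramide synthase Cers6 by 0.75.

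Genes of the contractile apparatus tended to higher values. Of 19 sarcomere and Z-disc genes, 7 rose and none fell, with a median of 0.31, and 4 were at the threshold without ST + KB-R7934 array 1 or 2 or static control array 3. Synpo2l, a Z-disc protein, stood at 7.92, 8.41 and 7.88 in ST + KB-R7934 arrays against 7.47, 6.52 and 6.45 in static control arrays (1.26, SE 0.29, adjusted p = 0.231). Klhl40, which stabilises thin filament proteins, rose by 0.90, Des by 0.74, Myom2 by 0.73 and Mybpc3 by 0.67, while Myh6 (0.02), Tnnt2 (0.10) and Actn2 (0.14) were not at the threshold. The cardiomyocyte marker list shares many members with it, among them Des, Mybpc3, Myl3, Tnni3, Myh6, Tnnt2 and Actn2, so the 2 lists are not separate observations. That marker list had higher means for 14 of 14 genes, of which 5 rose, with a median of 0.30. The 5 were 3 without static control array 2, and 2 without static control array 3 or ST + KB-R7934 array 1 or 2. In bulk RNA, a different share of a cell type and a different amount of RNA per cell cannot be told apart. Ckm, the muscle creatine kinase, was at 10.89, 11.08 and 10.89 in ST + KB-R7934 arrays and at 10.36, 10.05 and 9.79 in static control arrays (0.88, SE 0.16, adjusted p = 0.162). In the respiratory chain, 20 of 21 nuclear-encoded subunits had higher means and 11 rose, with a median of 0.27, led by Cox8b, a muscle form of a cytochrome oxidase subunit, at 0.59 (SE 0.10). That count of 11 was 3 without static control array 2, 4 without ST + KB-R7934 array 3 and 5 without ST + KB-R7934 array 2 or static control array 3. The part of the cardiomyocyte marker level in these lists was not tested.

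Of the 5 hypertrophy markers measured by the study, Fhl1 and Rcan1 were not among the clusters with exactly 1 symbol. The other 3, Nppa, Nppb and Acta1, were not at the threshold. Nppa, the atrial natriuretic peptide, stood at 12.77, 12.91 and 12.55 in ST + KB-R7934 arrays against 12.70, 12.63 and 11.99 in static control arrays (0.30, SE 0.21), and Nppb, the B-type peptide, differed by -0.18 (SE 0.20) and the skeletal actin Acta1 by 0.15 (SE 0.30). Their arrays overlapped between the groups.

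Of 19 potassium channel genes, 6 rose and 1 fell, with a median of 0.27. Kcna4, a channel of the transient outward current, stood at 7.64, 7.41 and 7.71 in ST + KB-R7934 arrays against 6.71, 6.23 and 6.37 in static control arrays (1.15, SE 0.16, 2.22-fold, adjusted p = 0.116). Abcc9 and Kcnj11, subunits of ATP-sensitive channels, of which Abcc9 is also listed as a pericyte marker, rose by 0.90 and 0.71, the background channel Kcnk3 by 0.78, Kcnh2 by 0.53 and Kcnj3 by 0.52, and Kcnd3, another transient outward channel, fell by 0.64. Of 16 genes of calcium and sodium handling, 2 rose, Gem, a small GTPase that restrains L-type calcium channels, by 0.71 (SE 0.14) and Atp1b1, a subunit of the sodium pump, by 0.59 (SE 0.14), while Atp2a2 (0.13), Pln (0.25) and Stim1 (-0.29) were not at the threshold. In the cAMP and adrenergic list 5 of 15 rose, among them the receptor Adra1a at 7.18, 7.24 and 7.13 in ST + KB-R7934 arrays against 6.59, 6.05 and 6.14 in static control arrays (0.92, SE 0.16) and the phosphodiesterase Pde4d (0.85), and 3 rose without static control array 3. Of 20 junction genes 3 rose, the desmosomal Dsp by 0.72 (SE 0.10, adjusted p = 0.116), Pkp2 by 0.40 and Jup by 0.36, and Gja1, the main ventricular connexin, was at 0.26 and not at the threshold. The shares that rose were 31.6% for potassium channels, 12.5% for calcium and sodium handling, 33.3% for cAMP and 15% for junctions. Over all genes 5.43% rose.

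Markers of macrophages and other leukocytes were lower in ST + KB-R7934. Of 23 measured, 15 fell and none rose, with a median of -0.60, and their summed linear level was 1572 to 2259 in ST + KB-R7934 arrays, against 2407 to 5270 in static control arrays. None of the 23 lay below the lower quartile of all clusters in any array. Lyz2, the macrophage lysozyme, had the largest difference of all lower genes, at 5.28, 6.07 and 7.43 in ST + KB-R7934 arrays against 8.91, 8.35 and 9.90 in static control arrays (-2.79, SE 0.59, 6.91-fold lower, adjusted p = 0.202). Tyrobp, an adaptor of myeloid receptors, was at 6.04, 6.52 and 7.36 in ST + KB-R7934 arrays and at 8.67, 7.94 and 9.35 in static control arrays (-2.02, SE 0.43). The arrays did not overlap for these genes, but they did for Fcer1g (-1.83), Adgre1 (-1.60) and the platelet and monocyte chemokine Pf4 (-2.16), for which ST + KB-R7934 array 3 lay just above the lowest control. Csf1r, the receptor that macrophages need to survive, fell by 1.18, and the complement gene C1qa by 0.65 (SE 0.13). Leaving out each array in turn gave medians of the list from -0.89, without ST + KB-R7934 array 3, to -0.53. The number that fell was then 12 to 16. Several genes above, such as Hmox1 and Apoe, are also expressed in macrophages, and the part of these cells in their differences was not tested.

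Of 29 NF-kappaB and cytokine genes, 7 rose and none fell, with a median of 0.12. Their mean deviation from the 6-array mean was -0.10, -0.01 and 0.50 in ST + KB-R7934 arrays 1 to 3, against -0.09, -0.33 and 0.03 in static control arrays 1 to 3. The leukocyte markers, at -0.65, -0.51 and -0.13 in the same ST + KB-R7934 arrays and 0.41, 0.05 and 0.84 in the same static control arrays, had the same order of arrays within each group, with ST + KB-R7934 array 3 the highest of its group in both lists. The part of leukocytes in the cytokine values was not tested. Ccl2, a monocyte attractant, stood at 11.27, 11.35 and 11.82 in ST + KB-R7934 arrays against 10.40, 9.69 and 10.81 in static control arrays (1.18, SE 0.29, adjusted p = 0.253). Il6 was at 6.22, 6.30 and 6.91 in ST + KB-R7934 arrays and at 5.70, 4.98 and 5.08 in static control arrays (1.22, SE 0.25, adjusted p = 0.198). Ccl7 rose by 1.52, Cxcl6 by 1.27 and Cxcl1 by 1.21, and Tnf (0.23) and Il1b (-0.56) were not at the threshold. With all 18 arrays in the fit 4 genes of the list were at the threshold. Of 21 interferon-induced genes 3 rose and 2 fell (14.3% and 9.52%, against 5.43% and 6.2% of all genes). Without ST + KB-R7934 array 1 the 3 became 7, and without ST + KB-R7934 array 2 or 3 or static control array 2 or 3 only 1. The GTPase Gbp1 was at 8.72, 9.29 and 9.04 in ST + KB-R7934 arrays and at 7.65, 7.44 and 7.25 in static control arrays (1.57, SE 0.18, 2.96-fold, adjusted p = 0.105), and Cxcl11, an interferon-induced chemokine outside the list, rose by 1.76 (SE 0.30), whereas Psmb8 of the immunoproteasome fell by 0.63.

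Genes of mitosis had lower means for 22 of 23 members, with a median of -0.32, but only Ttk (-0.74) and Ccnb1 (-0.54) fell, a share of 8.70% against 6.2% of all genes. The median was -0.13 without ST + KB-R7934 array 3 and likewise without static control array 1, with 0 and 1 genes at the threshold. Of 23 replication genes 3 fell, Mcm10 by 0.43, Cdc45 by 0.40 and Ccne1 by 0.29 (13.0%, against the same 6.2%), and none did without ST + KB-R7934 array 3 or static control array 1. Among cell cycle inhibitors and p53 targets, Cdkn1c rose by 0.73 while Cdkn2c and Gadd45a fell by 0.51 and 0.88. Of 29 matrix genes 1 rose and 3 fell (3.45% and 10.3%, against 5.43% and 6.2% of all genes). Of 15 fibroblast markers 1 rose and 2 fell (6.67% and 13.3%, against the same shares), and the counts were small in both lists. The ST + KB-R7934 arrays lay wholly below the controls for 7 of the 29 matrix genes and wholly above them for 1, against 10.5% and 9.64% of all genes. Without static control array 2 the 3 matrix genes lower became 5, and the 2 fibroblast markers lower were 1 without static control array 1 or ST + KB-R7934 array 2 or 3. Static control array 1 stood apart from the other controls, with a mean deviation of the fibroblast markers of 0.43, against -0.32 and -0.30 in static control arrays 2 and 3. The collagen chains Col5a2, Col1a2 and Col1a1 fell by 0.62, 0.61 and 0.54, and Dcn, a small matrix proteoglycan, stood at 9.75, 9.86 and 10.40 in ST + KB-R7934 arrays against 9.25, 8.22 and 8.78 in static control arrays (1.25, SE 0.29, adjusted p = 0.23). Among TGF-beta family genes, Inhba, a subunit of activin A, rose by 1.32 and Tgfbr3 by 0.54, and Tgfb3 and Id1 fell by 0.71 and 0.54. Of 9 genes of the atrophy list 1 rose, the ubiquitin ligase Fbxo32, by 0.98 (SE 0.14, adjusted p = 0.116). The list also holds Gadd45a, its 1 gene that fell, and its median was -0.08. Of 8 smooth muscle and pericyte markers 2 rose, Abcc9 and Des, which are also in the potassium channel and sarcomere lists, with a median of 0.20, and 1 rose without static control array 3 or ST + KB-R7934 array 1 or 2, but 4 without static control array 1. Of 7 Schwann cell and neuron markers 1 rose, Gap43 by 0.35, and none without static control array 3. None of the endothelial, epicardial or erythroid markers was at the threshold.

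**Figure D4:**
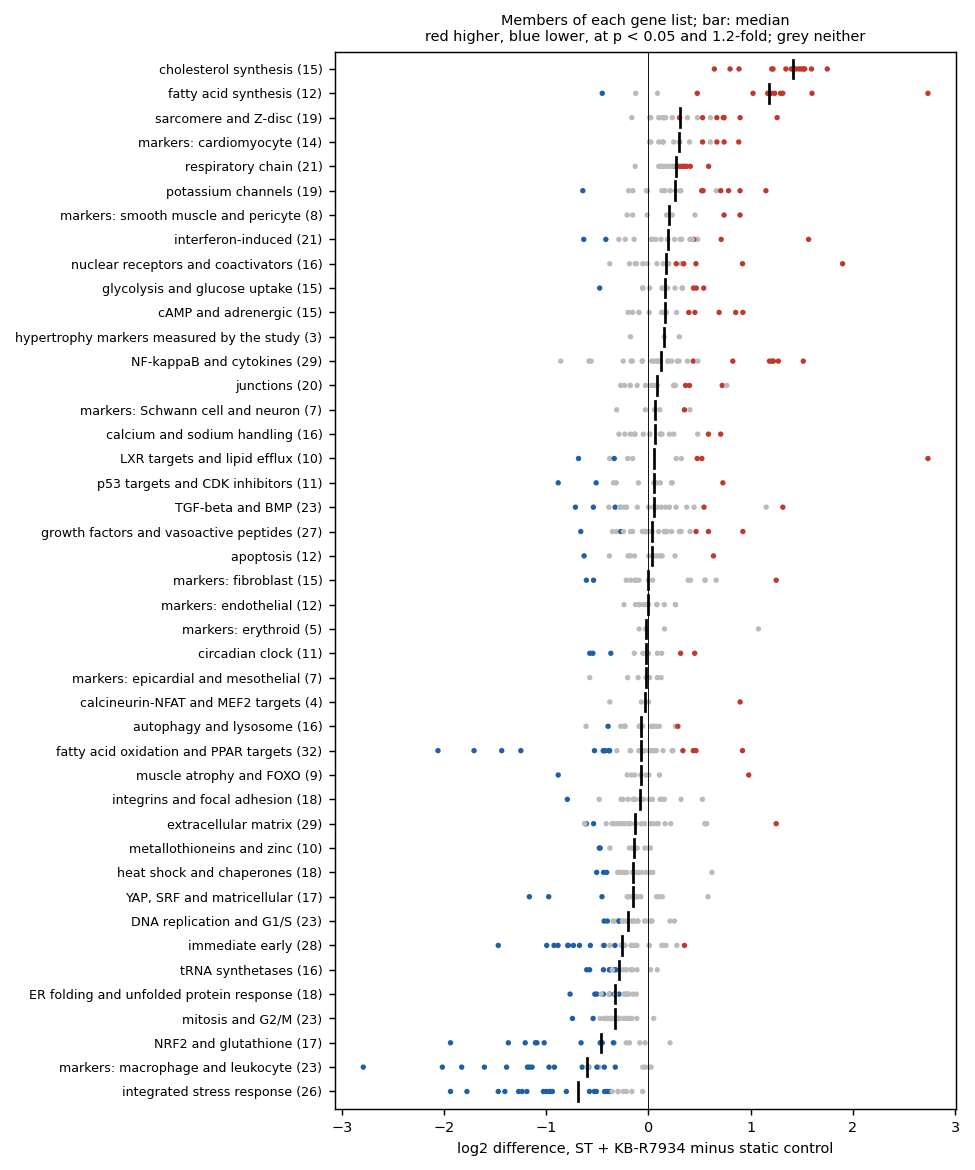
Log2 differences of ST + KB-R7934 minus static control for the members of each of the 43 gene lists, with the number measured in brackets; points are genes (red higher, blue lower, grey not at the threshold) and black bars are medians. Medians run from 1.42 for cholesterol synthesis at the top to -0.69 for the integrated stress response at the bottom.

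The same compound at 10 µM was used in the pacing experiment of the series, where MC were stimulated at 8 Hz for 3 h with KB-R7934 (TC + KB-R7934) and compared with cells paced at 1 Hz without it. That experiment shares no array with the stretch experiment, but the trigger, the duration and the surface of the culture all differ, and their parts cannot be told apart. At the same threshold 1165 genes were counted in TC + KB-R7934 (8.0%), 627 higher (4.31%) and 538 lower (3.7%). Over all clusters, 3165 met it (8.63%), 1743 higher (4.75%) and 1422 lower (3.88%), while 0 had an adjusted p under 0.05 by limma, the smallest being 0.412. Across the 14557 genes the differences of ST + KB-R7934 and TC + KB-R7934 correlated at r = 0.129 (Spearman 0.120), a description in which genes are not independent. At the threshold in both were 190 genes, 11.2% of those of ST + KB-R7934 and 16.3% of those of TC + KB-R7934, of which 51 were higher and 75 lower in both.

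Cholesterol synthesis genes had a median of 1.42 in ST + KB-R7934 and 0.11 in TC + KB-R7934, where none of the 15 was at the threshold. For 14 of the 15 the interaction of limma, which tests the difference between the experiments itself, had an unadjusted p under 0.05, against 10.1% of all genes. The integrated stress response had medians of -0.69 in ST + KB-R7934 and 0.14 in TC + KB-R7934 (0 at the threshold), and 19 of 26 genes had such an interaction p. Immediate early genes had medians of -0.26 and 0.41 in ST + KB-R7934 and TC + KB-R7934, with 6 higher in the pacing experiment, and 11 of 28 an interaction p under 0.05. Leukocyte markers were lower in both, with medians of -0.60 in ST + KB-R7934 and -0.53 in TC + KB-R7934, where 11 of 23 fell, and 3 of 23 had an interaction p under 0.05. NF-kappaB and cytokine genes had medians of 0.12 and 0.52 in ST + KB-R7934 and TC + KB-R7934. Of these 29 genes, 7 and 11 rose, and 10 had an interaction p under 0.05. Mitosis genes had medians of -0.32 and -0.34, and of 23 genes 2 and 3 fell. After adjustment, 2 clusters differed between the experiments at an adjusted p under 0.05 (0.00545%), of which 1 was among the genes (0.00687%). Nr0b2 was among them, with a difference of 1.90 in ST + KB-R7934 and -0.57 in TC + KB-R7934 (interaction 2.47, SE 0.23, limma adjusted p = 0.0122). The count of such clusters was 0 without ST + KB-R7934 array 2, static control array 2 or TC + KB-R7934 array 1 or 2, where the smallest adjusted p was 0.0789, 0.0809, 0.0636 and 0.0589. It was 1 without ST + KB-R7934 array 1, static control array 3, TC + KB-R7934 array 3 or 1 Hz control array 2 or 3. The next genes by interaction p were Ebp, C14h7orf57, Gnrh1 and Mvd, none of them at an adjusted p under 0.05.

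**Figure D5:**
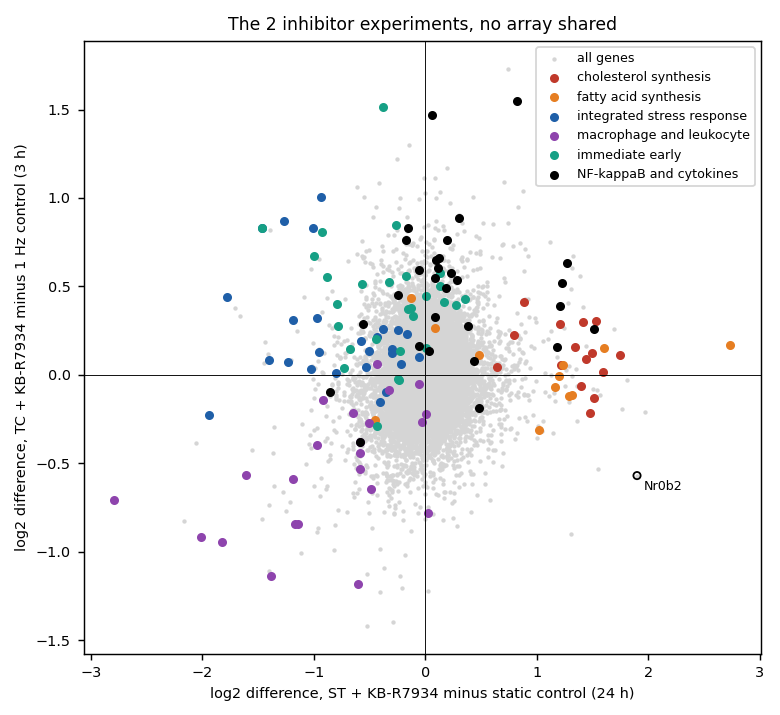
Each point is a gene, with the log2 difference of ST + KB-R7934 minus static control on the horizontal axis and of TC + KB-R7934 minus 1 Hz control on the vertical axis. Cholesterol synthesis genes (red) are spread to the right around a vertical median of 0.11, and leukocyte markers (purple) lie mostly in the lower left.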

How the data were processed

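Rat Gene 2.0 ST arrays were hybridised with RNA of neonatal rat ventricular myocytes. The values are log2 expression per transcript cluster as deposited by the authors, who pre-processed the arrays with the Partek software; the summarisation and normalization method is not given in the sources used here, and the table holds no detection call. Cluster names came from the platform annotation: 14824 of 36685 clusters had exactly 1 gene symbol, 829 several and 21032 none, and 14670 of the named clusters had an Entrez ID in RefSeq GRCr8. For the 234 genes with several clusters the brightest by mean over the 6 arrays was taken. ST + KB-R7934 and static control were compared with limma 3.58.1 in R 4.3.3 (lmFit and eBayes, 3 arrays per group, two-sided, Benjamini-Hochberg over all 36685 clusters), which was tested on simulated data. The labels call the arrays biological replicates without naming isolations, and p-values measure the spread between these arrays. The threshold was an unadjusted p under 0.05 and at least 1.2-fold. A pacing experiment of 6 further arrays was set against it by an interaction contrast.

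Genes named were, per direction, the 15 with the smallest p among those whose arrays did not overlap and the 10 with the largest difference at the threshold, the 4 smallest p of each of 43 gene lists, the hypertrophy markers, the exchanger genes and the 5 smallest interaction p (185 genes). Further list members were named for their place in a pathway after their values were seen. The members and lists were chosen with earlier results of these data known. Lists are described by counts and medians beside those of all genes. The arrays of stretch alone were not used, except in fits with all arrays of the stretch experiment or of the series. Alternatives were other fits, filters, normalizations, a replicate block and leaving out each array. List counts under them were added after seeing the data.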

Additional observations from a re-analysis of the deposited data

Results flagged for a closer look

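Among 36685 clusters, 2 differed between the inhibitor experiments by limma's interaction test at an adjusted p under 0.05. Nr0b2 stood at 7.97, 8.30 and 8.33 in ST + KB-R7934 arrays against 6.22, 6.24 and 6.45 in static control arrays, and at 5.96, 5.75 and 6.06 in TC + KB-R7934 arrays against 6.58, 6.17 and 6.73 in 1 Hz control arrays, which gave a difference between the experiments of 2.47 on the log2 scale (SE 0.23, adjusted p = 0.0122). It was higher in all 3 stretched arrays with inhibitor and lower in all 3 paced ones. A transcript cluster with no gene name here, 17882735, stood at 9.81, 9.82 and 9.53 in ST + KB-R7934 arrays against 8.21, 7.74 and 7.65 in static control arrays, while TC + KB-R7934 arrays at 8.07, 7.95 and 8.08 lay below 1 Hz control arrays at 8.30, 8.12 and 8.15 (difference 2.01, SE 0.21, adjusted p = 0.0225). Neither call was kept without ST + KB-R7934 array 2, static control array 2 or TC + KB-R7934 array 1 or 2, where the smallest adjusted p lay between 0.0589 and 0.0809. Only 1 cluster was called without ST + KB-R7934 array 1, static control array 3, TC + KB-R7934 array 3 or 1 Hz control array 2 or 3. Duration, surface and trigger differ between the experiments, and their parts cannot be told apart.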

How the results depend on the processing

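At an adjusted p under 0.05, the 2 clusters of ST + KB-R7934 against static control became 60 with the 9 arrays of the stretch experiment in the fit, 210 with all 18, 32 with the trend and robust options of eBayes, 24 without clusters below the median, 4 over clusters with exactly 1 symbol, and 0 with median centring. With 1 array left out the count was 0 to 21, the 21 without static control array 1. At the study's threshold, the 3800 clusters became 1227 at 1.5-fold, 1724 over clusters with 1 symbol and 2017 with a two-way ANOVA that takes the replicate number as its second factor, which called 0 at an adjusted p under 0.05, and 2952 to 4287 with 1 array left out. The interaction count of 2 became 10 with trend and robust, 19 without dim clusters, 21 with all 18 arrays and 0 to 26 with 1 array left out (26 without static control array 1). Same-numbered arrays of the groups correlated in their deviations at 0.12, 0.0065 and 0.15, and different-numbered arrays at -0.17 to 0.049. These few values do not decide whether the labels' numbers pair the arrays, and the main fit left pairing out. With the replicate block 0 clusters had an adjusted p under 0.05, 4253 met the threshold and 4 differed between the experiments. Under quantile normalization the higher and lower clusters at the threshold were 1955 and 1841, against 1801 and 1999 as deposited. None of the 140 named genes at the threshold reversed under any alternative, but the two-way ANOVA kept 93 of these calls (47 lost), an unpaired test 117 (23 lost), the replicate block 134 and leaving out 1 array 120 to 130. Genes not at the threshold reversed when single arrays were left out: Acta1 ranged from -0.11 to 0.38, Ahsp from -0.25 to 0.14, Klf1 from -0.092 to 0.064, Lrrn4 from -0.22 to 0.023, Mef2c from -0.060 to 0.061, Msln from -0.47 to 0.072 and Slc8b1 from -0.078 to 0.24. Among list counts at the threshold, all chosen after seeing the data, mitosis genes were 10 with the replicate block against 2.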

Other observations

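Some genes at the threshold outside the lists were chosen after their values were seen, and are given as values that say nothing of a group. Among amino acid transporters, the cationic carrier Slc7a1 fell by 1.01, its relative Slc7a3 by 1.03 and the neutral carrier Slc1a4 by 0.99, while Slc38a4 rose by 0.85. Of nucleosome and chromatin proteins, Hmga1 fell by 0.72, Hmgn1 by 0.58 and H2ax by 0.58. Among secreted proteins, single genes picked for their values were Chi3l1 (1.54), Slpi (1.5), Lbp (1.33), Lcn2 (1.2) and Hamp, the iron hormone hepcidin (1.06); how many others of their kind were measured was not counted. The detoxifying enzymes Akr1b8 and Aldh3a1 fell by 1.07 and 0.99. Of the 21861 clusters without exactly 1 gene symbol, 2076 were at the threshold and are not described here.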
